A study of Mus musculus with 6 samples.

Results

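Trp53 and 9 genes tied to it were followed in germline stem (GS) cells whose frozen stocks had spent months in orbit, aboard the ISS (International Space Station), or on Earth. The 10 genes were chosen by name from 32285 gene identifiers in the count table and comprised Trp53, its inhibitors Mdm2 and Mdm4, and the target genes Cdkn1a, Ccng1, Zmat3, Sesn1, Sesn2, Trp53inp1 and Phlda3. GS cells are cultured spermatogonia with stem cell activity that expand in GDNF and FGF2. They were derived from testes of DBA/2 pups aged 2 to 3 days that carried the Tg14(act-EGFP-OsbY01) transgene, and they grew on mouse embryonic fibroblasts, so each library can hold RNA of feeder cells. All 6 cultures shared this genotype and were cryopreserved for 6 months. The 3 Space libraries came from cells kept on the ISS and the 3 Ground libraries from cells kept on Earth, with RNA taken after thawing. The treatment label of every library contradicts its title, and groups were taken from the titles, so each direction given here would turn around if the treatment label were right. The study mentions 3 lines of each kind, but no label says which line or animal stands behind a library, and p-values measure only the spread between these libraries.

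p53, the protein of Trp53, is a transcription factor that is kept low by continual degradation and is stabilised after DNA damage. It then switches on genes that hold the cell cycle, help repair and restrain growth, or start cell death. Mdm2 is both its target and the ubiquitin ligase that marks it for degradation, which closes a feedback loop, and spermatogonia are known as a radiation-sensitive cell type of the testis. Because the protein is controlled after translation, the transcripts of the targets are commonly read as a sign of its activity. The study asked whether cells exposed to space radiation in the frozen state differ in their genes of damage response, and storage in orbit against storage on Earth was the comparison that the design allowed.

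The sequences below show where 5 of the genes carry the 10-base motif of p53, alone or in a pair, close to a transcription start. p53 binds pairs of a 10-base motif, the p53 decamer, which is its own reverse complement, so both strands were covered. RefSeq windows from 250 bases before to 50 bases after a start (GRCm38.p6) were held for 8 of the 10 genes. Trp53inp1 and Zmat3 had none. An exact decamer lay in 5 of their 11 windows, those of Trp53, Mdm2, Ccng1, Sesn1 and Cdkn1a, against 8.36% of all 32851 windows. In the lines that follow the decamers are in capitals, the sequence runs 5′ to 3′ on the strand of the gene, and the coordinates cover the capitals and what lies between them.
Cdkn1a, chr17:29090906-29090937, plus strand: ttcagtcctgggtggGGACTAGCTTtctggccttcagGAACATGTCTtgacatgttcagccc
Sesn1, chr10:41887253-41887275, plus strand: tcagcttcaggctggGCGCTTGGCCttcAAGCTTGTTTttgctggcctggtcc
Trp53, chr11:69580284-69580293, plus strand: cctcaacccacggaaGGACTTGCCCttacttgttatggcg
Mdm2, chr10:117710935-117710944, minus strand: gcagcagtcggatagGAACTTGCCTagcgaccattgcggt
Ccng1, chr11:40755462-40755471, minus strand: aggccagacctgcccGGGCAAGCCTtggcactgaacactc

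Pairs of decamers with a spacer of up to 13 bases and at most 2 mismatches were found for Cdkn1a and Sesn1, and in 2.12% of all windows. The decamers of Trp53, Mdm2 and Ccng1 had no such partner. The Cdkn1a window held 2 exact decamers 12 bases apart, and the second of them ran without a spacer into a decamer with 1 mismatch to form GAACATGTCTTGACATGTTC, from 51 to 32 bases before the start. The first decamer of the Sesn1 pair carried its 2 mismatches. The Sesn1 site lies within the Sesn1 gene but in no annotated exon, before an internal start, and the other 4 sites lie outside annotated genes. A match of letters is a description and not evidence of binding, and windows without a match say nothing about the factor.

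The libraries held between 19015985 and 24110916 counts, and the 10 genes had from 182 (Phlda3 in Ground-2) to 4956 counts (Mdm4 in Space-1) per library. Levels are counts per 1000000 counts of the library (CPM), on library sizes corrected with TMM (trimmed mean of M-values) factors. Mitochondrial transcripts took from 2.51% (Space-1) to 11.5% (Ground-2) of the counts. Libraries resembled each other across the groups, because each Ground library had its highest correlation over all tested genes with a Space library. Pearson's r of log2 CPM was 0.996 for Ground-1 with Space-3, 0.994 for Ground-2 with Space-2 and 0.994 for Ground-3 with Space-1, as a description over genes. The markers of undifferentiated spermatogonia were present throughout, with 14 of 14 detected and a summed level of 3158 to 3246 CPM. Single markers of that list could vary more than the sum. Etv5 ran from 93.0 CPM in Ground-3 and 99.1 CPM in Space-1 to 262 CPM in Space-3. Pou5f1 ran from 67.9 CPM in Ground-1 to 141 CPM in Space-1 and 158 CPM in Ground-3, while Ddx4 ran from 376 to 422 CPM. Markers of feeder fibroblasts summed to 951 to 996 CPM in Ground and 813 to 1009 CPM in Space. Of these, 15 of 16 had a log2 fold change below 0, and none at 0, against 51.3% of all genes tested below 0. Space lay below Ground without overlap for 2 of 16 (Col1a2 and Loxl1), against 1.98% of all genes tested, and 3 of 16 had an unadjusted p under 0.05 in edgeR's test, against 0.609% of all genes, with 0 of 16 passing after adjustment. The 4 markers of differentiating spermatogonia summed to 559 to 602 CPM in Ground and 564 to 618 CPM in Space. Lists of other cell types were low, with 24.6 to 28.0 CPM for 5 Sertoli markers, 14.1 to 22.6 CPM for 4 macrophage markers and 10.5 to 20.7 CPM for 3 endothelial markers. In bulk RNA fewer cells of a type and less RNA per cell cannot be told apart.

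All 10 genes were expressed in every library and passed the filter on low counts. In the comparison of Space with Ground, 0 of the 10 passed edgeR's quasi-likelihood test at a Benjamini-Hochberg adjusted p under 0.05, where 0% of the 15104 genes tested did so. At an unadjusted p under 0.05 there were also 0 of 10, against 0.609% of all genes (0.159% higher and 0.45% lower in Space), and DESeq2 and limma-voom likewise gave 0 of 10 by either measure. Without any difference between groups, a share of genes near 0.05 would fall under that threshold. The share here was far smaller, so the test was strict in these data and 0 of 10 does not show equal levels. The cause was not tested. The log2 fold changes of Space minus Ground lay between -0.28 (Cdkn1a) and 0.057 (Sesn2), with 3 above and 7 below 0, where 51.3% of all genes tested were below 0. Scaled by total counts, 4 of the 10 and 33.3% of all genes were below 0. The median of the 10 was -0.010, and that of all genes tested was -0.0020. An adjusted p of 0.9999 applied to each of the 10 genes in edgeR's test and is not repeated. Only Cdkn1a had groups that did not overlap, with Space below Ground, and 1.98% of all genes tested did the same in that direction, with 1.61% in the other. Scaled by total counts, none of the 10 had such groups, and scaled by RLE (relative log expression) Cdkn1a alone had them.

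**Figure D1:**
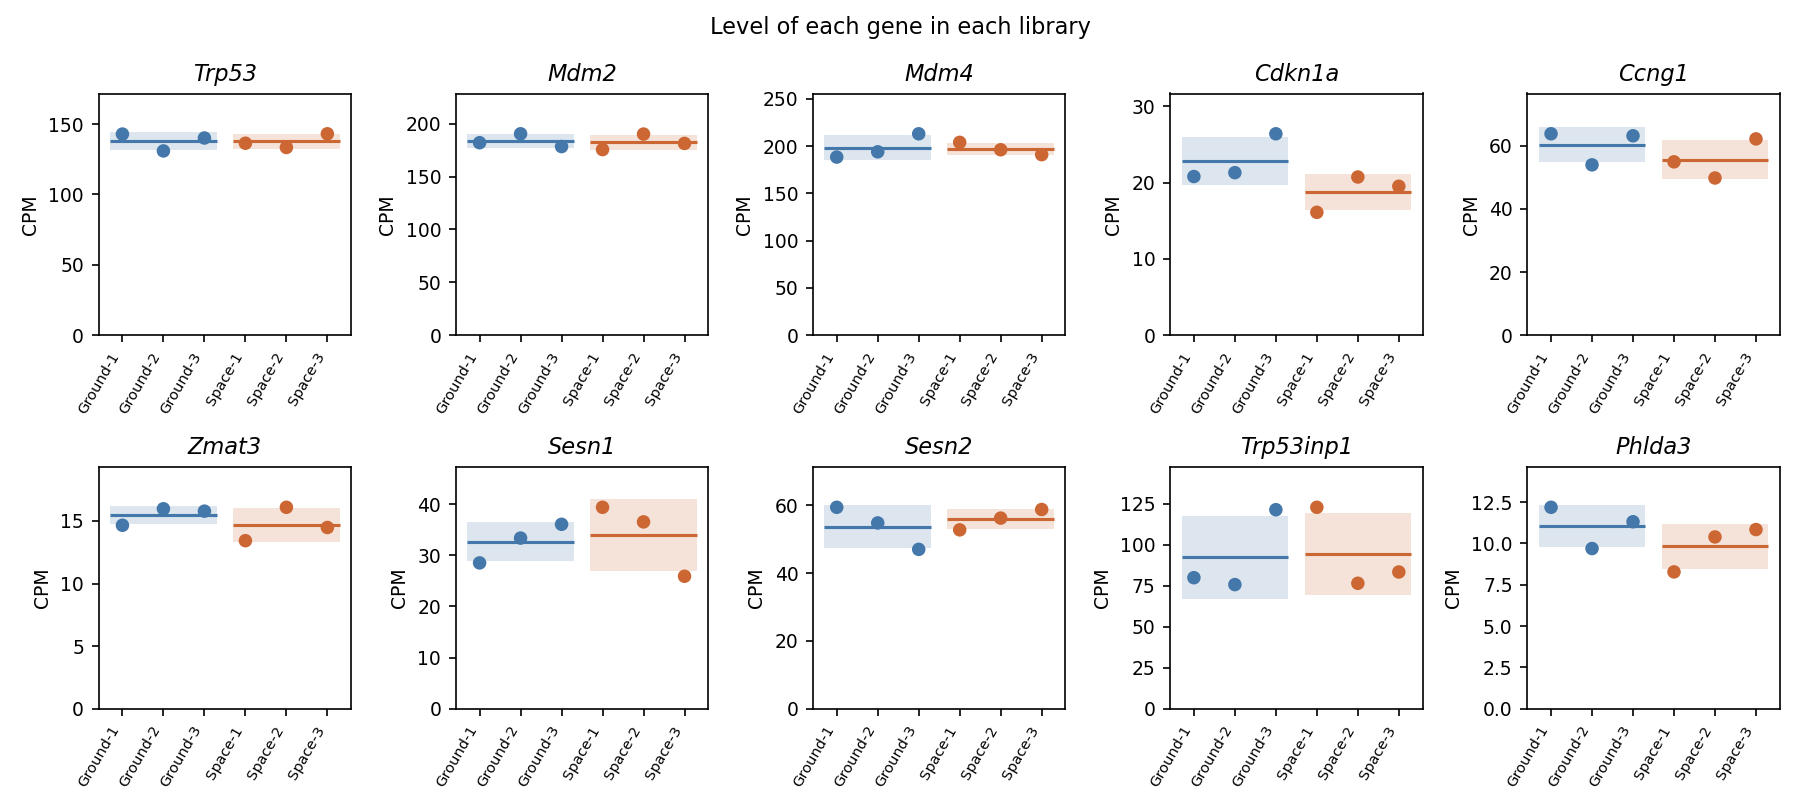
Level of each of the 10 genes in CPM (vertical axis from 0) in the 6 libraries (horizontal axis), with Ground in blue and Space in orange. Lines are group means and bands 1 SD either side (n = 3). Trp53, Mdm2 and Mdm4 run nearly level, while Trp53inp1 stands at 121 and 123 CPM in Ground-3 and Space-1 and between 75.8 and 83.5 CPM in the other libraries.

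Trp53, Mdm2 and Mdm4 varied least of the 10 genes, with coefficients of variation over the 6 libraries of 3.67%, 3.35% and 4.65%, against a median of 10.6% over all genes tested. Trp53 (ENSMUSG00000059552, chr11:69580359-69591873) stood at 143, 131 and 140 CPM in the Ground libraries, in the order of their numbers as in all such lists, and at 136, 133 and 143 CPM in the Space libraries. The groups overlapped, and the highest library, Space-3, exceeded the lowest, Ground-2, by a factor of 1.09. Among all genes tested, 7.14% had a smaller ratio of highest to lowest library. The 95% interval of the edgeR fold between Space and Ground reached from 0.907 to 1.10, and the standard error of the log2 fold change was 0.059. The study also measured Trp53 by real-time PCR, with the primers agcagggtgtcacgcttctc and ggatatcttctggaggaagt, shown because they fix which transcripts that assay reads. They span 133 bases from exon 1 to exon 3 (chr11:69580486-69587276 on the genome) and match 5 of the 6 Trp53 transcripts of GENCODE M21, whereas the count table adds reads of the whole gene.

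Mdm2 (ENSMUSG00000020184, chr10:117688875-117710758), the ligase that degrades p53, had 182, 190 and 178 CPM in Ground and 175, 190 and 181 CPM in Space. Its highest values were in Ground-2 and Space-2, the 2 libraries lowest in Trp53, and its lowest was in Space-1. The fold interval was 0.906 to 1.09 (log2 fold change -0.010, SE 0.057). Mdm4 (ENSMUSG00000054387, chr1:132959484-133030561), which binds p53 and blocks its activation domain, had 189, 194 and 213 CPM in Ground and 204, 196 and 191 CPM in Space. Ground-3 and Space-1 held its 2 highest values, and the groups overlapped (log2 fold change -0.011, SE 0.064, fold interval 0.895 to 1.10). For Trp53, Mdm2 and Mdm4 the sign of the difference turned positive when libraries were scaled by total counts, and it was below its standard error under both scalings.

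Per length of exon, Mdm2 and Trp53 were the most abundant of the 10 transcripts. Mdm2 had 36.0 ± 1.21 and Trp53 34.1 ± 1.25 CPM per kb (SD, n = 6 libraries), and although their ranges touched, Mdm2 was above Trp53 in 6 of 6 libraries, by a factor of 1.01 to 1.16. Both stood clear of the next 4 genes, whose ranges overlapped, namely Ccng1 with 16.5 ± 1.66, Sesn2 with 15.8 ± 1.31, Trp53inp1 with 14.4 ± 3.48 and Mdm4 with 13.4 ± 0.622 CPM per kb. A further gap separated Mdm4 from Sesn1 with 8.37 ± 1.29, Phlda3 with 6.70 ± 0.870 and Cdkn1a with 5.86 ± 0.936 CPM per kb, which again overlapped. Zmat3 came last with 1.32 ± 0.0925 CPM per kb, below Cdkn1a by a factor of 4.44. The median of all genes tested was 5.24 CPM per kb, so 9 of the 10 lay above it. Exon length is the union of all annotated exons, so a gene whose annotated exons are not all used in these cells is understated by it, and exon use was not measured here. The longest union was that of Mdm4, with 14798 bases. The ratio of Mdm2 to Mdm4 per length was 2.81, 2.86 and 2.44 in Ground and 2.50, 2.82 and 2.76 in Space, lowest in Ground-3 and Space-1.

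**Figure D2:**
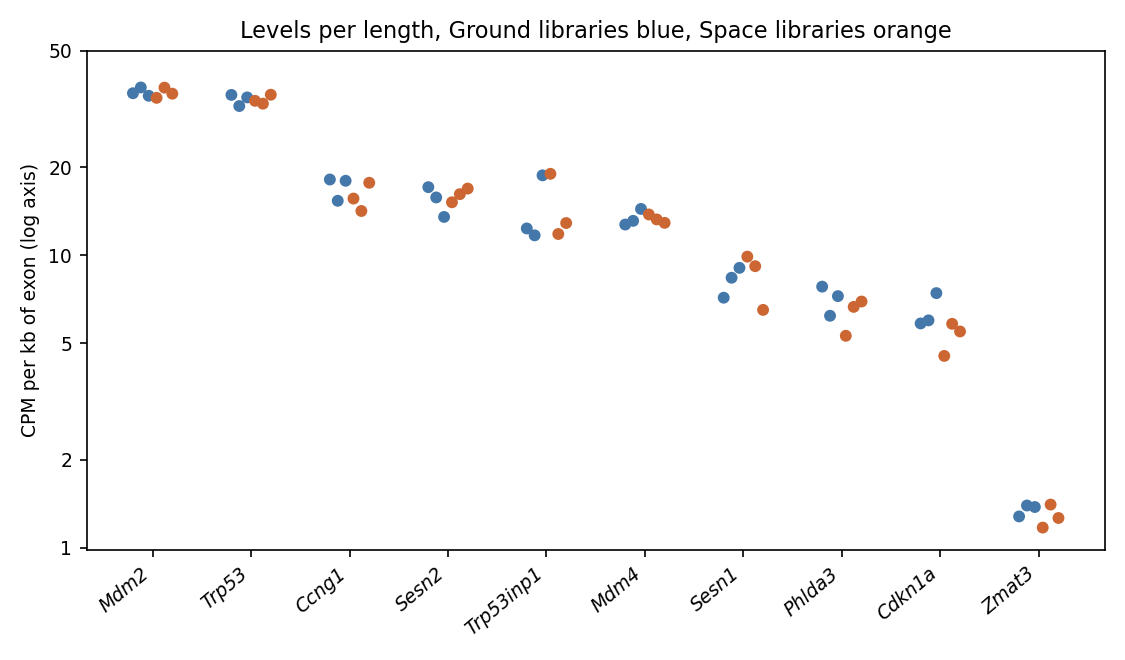
Level of the 10 genes in CPM per kb of exon on a log axis, ordered by their mean over 6 libraries, with 1 point per library (Ground blue, Space orange). Mdm2 and Trp53 lie near 36.0 and 34.1, Ccng1 to Mdm4 between 16.5 and 13.4, Sesn1 to Cdkn1a between 8.37 and 5.86, and Zmat3 at 1.32.

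Cdkn1a (ENSMUSG00000023067, chr17:29090976-29100727) encodes p21, the cyclin-dependent kinase inhibitor through which p53 stops the cell cycle. It had the largest difference of the 10 genes. Its level was 20.8, 21.3 and 26.4 CPM in the Ground libraries and 16.1, 20.7 and 19.5 CPM in the Space libraries. The Space libraries were all below the Ground libraries, but Space-2 and Ground-1 were nearly level, and the extremes were Ground-3 at the top and Space-1 at the bottom. Scaled by total counts the groups overlapped, with 20.1 CPM in Ground-2 below 20.5 CPM in Space-2. Under RLE scaling they stayed apart, with 20.77 CPM in Ground-1 just above 20.74 CPM in Space-2. The log2 fold change of -0.28 (SE 0.14) had a 95% interval from -0.60 to 0.037, in folds 0.658 to 1.03, and did not pass edgeR's test over all genes (unadjusted p = 0.0755). Without Ground-3 it was -0.16 and without Space-1 -0.18. With both left out, a choice made after the data were seen, it was -0.063 (SE 0.10).

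Feeder markers moved in part with Cdkn1a. Space-1 had the lowest summed level of feeder fibroblast markers, 813 CPM, as it had the lowest Cdkn1a, whereas Ground-3, highest in Cdkn1a, had 951 CPM, and Space-2, highest in feeder markers with 1009 CPM, was in the middle of the Cdkn1a range. The largest terms of that sum were Fn1 and Col5a1, with means of 431 and 272 CPM over the 6 libraries. Space-1 was the lowest library for all of the 16 feeder markers except Fn1, by unlike amounts. Col1a2 had 29.7 to 33.8 CPM in Ground and 13.3 to 26.0 CPM in Space, lowest in Space-1. Col3a1 had 14.8 CPM in Space-1 and 28.1 to 31.7 CPM in Ground, whereas Pdgfra had 14.4 CPM in Space-1 and 14.9 to 17.5 CPM in Ground. The part of the feeder cells in the Cdkn1a values was not tested. An antisense gene, AC167363.2, overlaps 7.68% of the exon bases of Cdkn1a. Although the study names a stranded library kit, the strand option of the counting was not given in the sources used here. Whether reads over the shared bases were counted for Cdkn1a, for AC167363.2 or for neither is therefore not known. Of the 10 genes only Cdkn1a shares exon bases with another gene. Several genes named from the other lists do so too, among them Cdkn1c (30.7%), Rpl5 (26.7%) and Bax (12.2%).

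Ccng1 and Zmat3 are the other targets linked to growth arrest. Ccng1 (ENSMUSG00000020326, chr11:40748552-40755311), cyclin G1, which directs a phosphatase to Mdm2, had 63.8, 53.9 and 63.1 CPM in Ground and 54.9, 49.8 and 62.2 CPM in Space. The lowest values were in Space-2 and Ground-2, and the groups overlapped (log2 fold change -0.12, SE 0.10, fold interval 0.782 to 1.09). Zmat3 (ENSMUSG00000027663, chr3:32334792-32366014), a zinc finger protein that binds RNA, had 14.7, 16.0 and 15.8 CPM in Ground and 13.4, 16.1 and 14.5 CPM in Space. Its groups overlapped as well, with Space-1 lowest, as for Cdkn1a (log2 fold change -0.078, SE 0.11, fold interval 0.792 to 1.13).

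**Figure D3:**
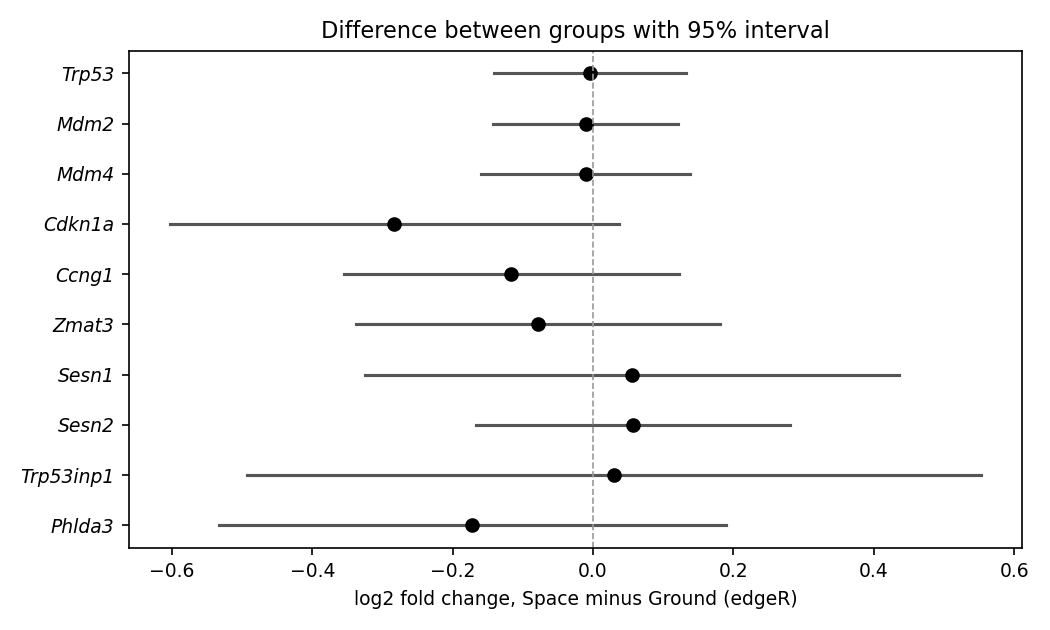
Log2 fold change of Space minus Ground (horizontal axis) for each of the 10 genes from edgeR, with points for the estimate and lines for its 95% interval (3 against 3 libraries). All 10 intervals include 0, those of Trp53, Mdm2 and Mdm4 are the narrowest, and Cdkn1a reaches from -0.60 to 0.037.

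Sesn1 and Sesn2 encode sestrins, stress proteins that restrain growth signalling through mTORC1. Sesn1 (ENSMUSG00000038332, chr10:41809935-41908424) had 28.5, 33.4 and 36.1 CPM in Ground and 39.4, 36.6 and 25.9 CPM in Space. Sesn2 (ENSMUSG00000028893, chr4:132492032-132510501), which also serves as a leucine sensor, had 59.4, 54.8 and 47.0 CPM in Ground and 52.8, 56.2 and 58.8 CPM in Space. The paralogs were ordered in opposite ways across the libraries, since Ground-1 and Space-3 were the 2 lowest for Sesn1 and the 2 highest for Sesn2, and Ground-3 and Space-1 were the 2 lowest for Sesn2. The ratio of Sesn2 to Sesn1 per length accordingly ran from 1.49 in Ground-3 and 1.53 in Space-1 to 2.39 in Ground-1 and 2.60 in Space-3. Between the groups the log2 fold change was 0.056 for Sesn1 (SE 0.16, fold interval 0.798 to 1.35) and 0.057 for Sesn2 (SE 0.096, fold interval 0.891 to 1.21), and the groups overlapped for both.

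Trp53inp1 (ENSMUSG00000028211, chr4:11156431-11174379), a stress protein that promotes cell death and autophagy downstream of p53, varied the most relative to its mean, with a coefficient of variation of 24.1% over the 6 libraries. It had 80.0, 75.8 and 121 CPM in Ground and 123, 76.6 and 83.5 CPM in Space. In each group 1 library was high and the other 2 low, so the group means of 92.4 ± 25.3 and 94.3 ± 25.0 CPM (SD, n = 3) lay close together with a wide fold interval of 0.711 to 1.47. The Trp53 transcript stood at 140 and 136 CPM in the high libraries, within its range of 131 to 143 CPM. The ratio of Trp53inp1 to Trp53 per length was 0.542 and 0.563 there and 0.350 to 0.364 in the other 4. Activity of the p53 protein was not measured, and the cause of the high Trp53inp1 values was not tested. Phlda3 (ENSMUSG00000041801, chr1:135766119-135769136), which competes with the kinase Akt for membrane lipids, had 12.2, 9.69 and 11.3 CPM in Ground and 8.28, 10.4 and 10.8 CPM in Space. Space-1 was lowest, Ground-1 was highest and the groups overlapped (log2 fold change -0.17, SE 0.16, fold interval 0.691 to 1.14).

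**Figure D4:**
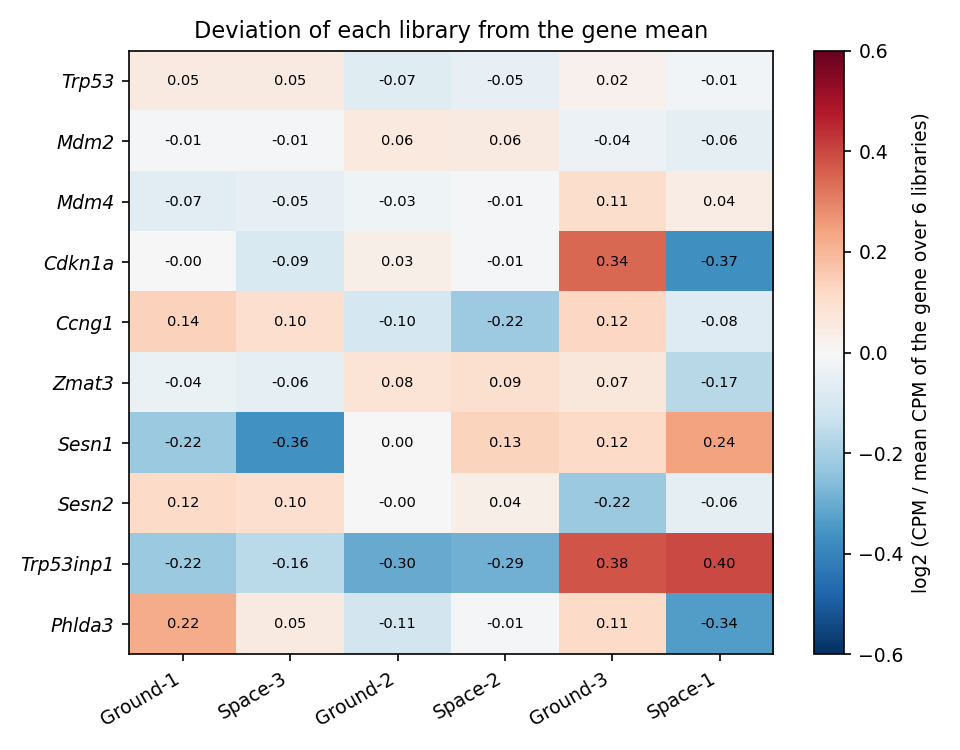
Log2 of each library's CPM over the gene's mean of 6 libraries (colour and printed value), with genes as rows and libraries as columns, each Ground library beside the Space library it resembled most over all genes. Trp53inp1 is at 0.38 and 0.40 in Ground-3 and Space-1, while Cdkn1a is at 0.34 in Ground-3 and -0.37 in Space-1.

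The targets did not vary as 1 block. In Space-1 the deviation from the gene mean on the log2 scale was -0.37 for Cdkn1a, -0.34 for Phlda3 and -0.17 for Zmat3, but 0.40 for Trp53inp1 and 0.24 for Sesn1. In Ground-3, the library most like Space-1 over all genes, Trp53inp1 was equally high at 0.38, whereas Cdkn1a stood at 0.34 and Phlda3 at 0.11. The gap between Ground-3 and Space-1 was thus wide for Cdkn1a and narrow for Trp53inp1. Over the 6 libraries the genes whose log2 CPM was most like that of Cdkn1a were Gask1b, Irx2 and Ly6a (Pearson's r 0.988, 0.980 and 0.974), at 1.11 to 5.35 CPM. Those most like Trp53 were Srrt, Apc and Tnfsf13b (r 0.996, 0.994 and 0.991). With only 6 libraries, 15 genes had an r over 0.95 with Cdkn1a and 60 with Trp53, so these likenesses are descriptions only.

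Other genes of the pathway gave the same count of 0. At an unadjusted p under 0.05 edgeR and limma-voom also had 0 in each of the 4 lists below, and DESeq2 had 1 of the 20 tested in the list for arrest, repair and metabolism, beside 45 of 15104 genes in all. Of 12 targets that act in apoptosis, 12 were tested and 0 passed edgeR's test in either direction, with log2 fold changes between -0.12 and 0.18 and a median of -0.020. Bax, which permeabilises mitochondria, was the most abundant per length, at 147 ± 9.71 CPM in Ground and 144 ± 5.64 CPM in Space (SD, n = 3). On the negative side the smallest p-values were those of Pmaip1 (Noxa), with a log2 fold change of -0.12 (SE 0.16), and to Siva1 with -0.063 (SE 0.082), and on the positive side those of Bbc3 (Puma), with 0.18 (SE 0.30), and Perp, with 0.086 (SE 0.28). The groups overlapped for all 12, and 3.59% of all genes tested had groups that did not.

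Among 22 further targets for arrest, repair and metabolism, 20 were tested and 0 passed in either direction, and Rprm and Trp53cor1, with at most 14 counts in a library, fell below the filter. Their median log2 fold change was -0.027. Ak1, an adenylate kinase, had the largest value of the list, -0.68 (SE 0.30, unadjusted p = 0.0526 in edgeR), at 7.89 ± 2.28 CPM in Ground and 4.93 ± 1.57 in Space with overlapping groups, and Dcxr, a carbonyl reductase, had -0.51 (SE 0.38). Ercc5, an endonuclease of nucleotide excision repair, and Gls2, a glutaminase, had 0.080 (SE 0.14) and 0.083 (SE 0.16). The most abundant per length were Epha2, an ephrin receptor, and Btg2, an antiproliferative gene. Epha2 ran from 121 CPM in Ground-3 and 123 in Space-1 to 493 CPM in Ground-1 and 486 in Space-3, and its group means of 303 ± 186 and 302 ± 182 CPM were close together. Btg2 had 140 CPM in Ground-3 and 136 in Space-1 and between 77.9 and 95.2 CPM in the other libraries, the same 2 libraries in which Trp53inp1 was high.

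Of 17 other regulators of p53, 17 were tested and 0 passed, with log2 fold changes between -0.073 and 0.084. Cdkn2a, whose product ARF inhibits Mdm2, had 48.8 ± 1.93 CPM in Ground and 46.3 ± 0.934 in Space, and all Space values were below Ground by a narrow margin (log2 fold change -0.073, SE 0.066). Crebbp, an acetyltransferase that modifies p53, was the reverse, with 297 ± 6.75 CPM in Ground and 313 ± 6.35 in Space (0.073, SE 0.050). These were the 2 of 17 genes whose groups did not overlap, and 3.59% of all genes tested had such groups. Scaled by total counts neither gene had such groups, and scaled by RLE both had them. Ep300, the paralog of Crebbp, had 0.080 (SE 0.076), and Atm, the kinase that signals double-strand breaks, had -0.050 (SE 0.056). Rpl5 and Rpl11, ribosomal proteins that bind Mdm2 when ribosome assembly fails, were the most abundant per length, with log2 fold changes of 0.032 (SE 0.075) and 0.019 (SE 0.12).

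Of 9 paralogs of the 10 genes, 8 were tested and 0 passed. Trp73, with 4 to 9 counts per library, was below the filter, and Trp63 reached only 10 to 48 counts, and Trp53 was the most abundant of its family. All 8 had log2 fold changes below 0, against 51.3% of all genes tested, with a median of -0.11. Scaled by total counts it was 7 of 8, against 33.3% of all genes. The smallest unadjusted p of the list was 0.202 in edgeR's test, and the groups overlapped for all 8. Phlda2, an imprinted relative of Phlda3, had -0.34 (SE 0.25) and Cdkn1b, the kinase inhibitor p27, -0.18 (SE 0.21), both with overlapping groups. Cdkn1c, the kinase inhibitor p57, and Trp53inp2, an autophagy factor, were the most abundant per length, with -0.044 (SE 0.15) and -0.0083 (SE 0.14).

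**Figure D5:**
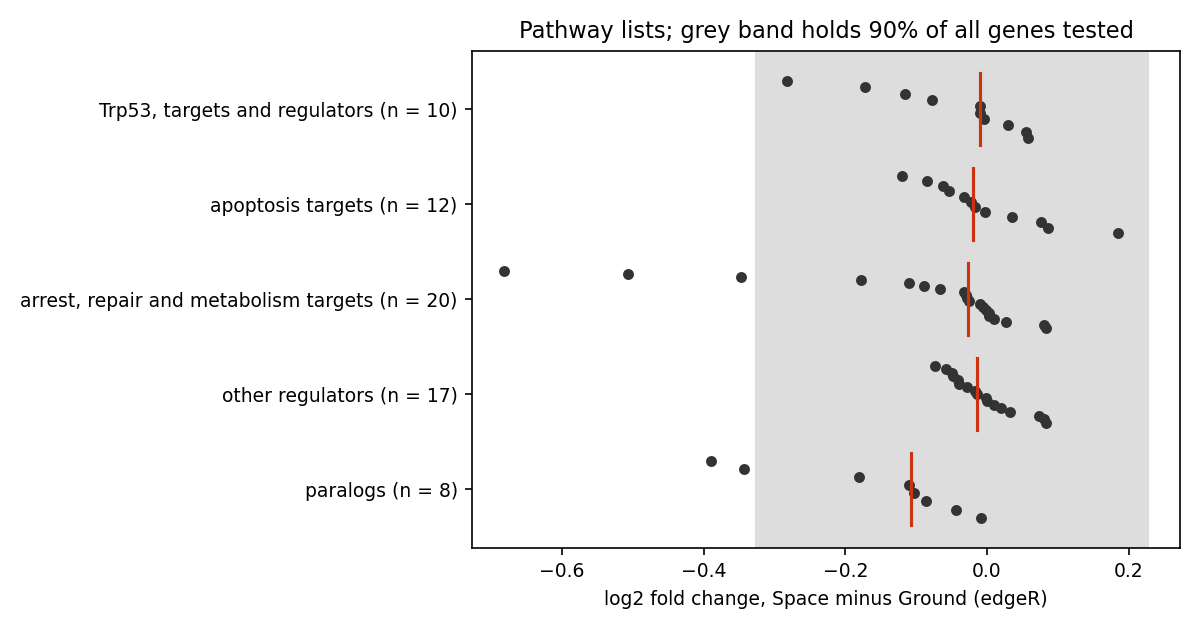
Log2 fold change of Space minus Ground (horizontal axis) for the 10 genes and the 4 other lists of the pathway, with 1 point per tested gene and a red line at each median. The grey band, from -0.33 to 0.23, holds 90% of all genes tested. The medians lie between -0.11 for the paralogs and -0.010 for the 10 genes, and the points left of the band include Ak1 at -0.68.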

How the data were processed

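The data were poly(A) RNA libraries of 6 GS cell samples, 3 titled Space and 3 titled Ground. The authors deposited raw counts per gene. The study states adapter trimming by cutadapt and alignment by HISAT2 to mm10 with the GENCODE M21 gene models, and the processing notes of the submitters also name HTSeq 2.0.2. The study names a stranded mRNA kit, the strand option of the counting is not given in the sources used here, and labels and methods differ on the kit and the sequencer. The test used edgeR 4.0.16 (R 4.3.3) on counts after filterByExpr (15104 genes) and TMM scaling, with a 2-sided quasi-likelihood F test, Benjamini-Hochberg adjustment over all genes and a threshold of 0.05. The standard error was the size of the log2 fold change divided by the square root of F, and 95% intervals used the t distribution with the degrees of freedom of the test. Log2 CPM used a prior count of 2. Exon lengths, positions and overlaps were read from the GENCODE M21 annotation, whose assembly GRCm38 is that of mm10, and promoter windows from RefSeq. That annotation held 32158 of the 32285 gene identifiers of the count table, including all 70 genes of the pathway lists. The gene models behind the counts may therefore differ from it. The fit was tested on simulated counts.

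The genes named were the 10 members, from each other list the 2 with the smallest p in each direction and the 2 with the highest level per length, and the 3 genes most like Trp53 and Cdkn1a. Members and lists were chosen with earlier results of these data known. Alternatives were RLE scaling, total counts, leaving out mitochondrial genes, no filter, at least 10 counts in 3 libraries, DESeq2 1.42.0, limma-voom with limma 3.58.1, a replicate block, and leaving out each library. The fit without Ground-3 and Space-1 was added after the data were seen.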

Additional observations from a re-analysis of the deposited data

How the results depend on the processing

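The count of genes past the threshold among the 10, among each of the 4 other lists and among all genes tested was 0 in all 15 alternatives, and the fits without 1 library gave from 0 to 0. Cdkn1a, Ccng1, Zmat3 and Phlda3 kept a log2 fold change below 0 in all 15, but its size depended on single libraries. The other signs were not stable, and no reversed value passed the threshold. Total counts gave 0.030 for Trp53, 0.026 for Mdm2 and 0.025 for Mdm4, with a median of 0.033 over all genes. Leaving out both Ground-3 and Space-1 gave 0.016 for Trp53 and 0.020 for Mdm4. In the fits without 1 library the ranges were -0.040 to 0.022 for Trp53, -0.041 to 0.017 for Mdm2, -0.047 to 0.049 for Mdm4, -0.068 to 0.22 for Sesn1, -0.026 to 0.14 for Sesn2, -0.21 to 0.28 for Trp53inp1, -0.36 to -0.16 for Cdkn1a, -0.20 to -0.043 for Ccng1, -0.15 to -0.019 for Zmat3 and -0.26 to -0.062 for Phlda3. The value nearest 0 was reached without Space-2 for Ccng1 and without Space-1 for Zmat3 and Phlda3. Leaving out both Ground-3 and Space-1 gave -0.00079 for Zmat3, -0.044 for Phlda3 and -0.069 for Ccng1. The cause was not tested.

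The data did not pair libraries of the same number. The deviations from the group means over the 1000 most variable genes correlated at -0.48, 0.28 and -0.60 in same-numbered libraries, and of the 3 Ground libraries only Ground-2 was most like the Space library of its own number. Between each Ground library and the Space library most like it the correlation was 0.63, 0.28 and 0.60, but no label pairs these libraries, so no fit was blocked on them and the standard errors take no account of this likeness. With the numbers as a replicate block 0 of the 10 genes and 0 of all genes passed. At an unadjusted p under 0.05 the replicate block had 63 genes in all, DESeq2 45 and the total counts 75, and the list for arrest, repair and metabolism had 1 under each of these, with no filter, without Ground-1 and without Space-2, and 0 under the other 9 alternatives. The depth was lowest for Phlda3, at 182 to 296 counts per library.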
